A study of Mus musculus with 16 samples.

Results

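The 38 genes described here encode lysosomal enzymes, lysosomal membrane proteins and the TFEB family factors that drive their transcription, and were chosen by name and function, with earlier results of these data known. They comprised 8 papain-like cysteine cathepsins, 3 other peptidases, 12 glycosidases and sulfatases, 6 proteins of lipid handling, 6 membrane proteins, progranulin and the transcription factors Tfeb and Tfe3. All 38 were found among the 56980 gene IDs of the count table, and all 38 were among the 17972 genes that passed the filter on low counts. RNA came from kidney cortex of male C57Bl/6J mice, sequenced as 16 ribosomal RNA-depleted, stranded libraries in 4 groups of 4. Controls were Degs1 fl/fl littermates, whose Degs1 gene is flanked by loxP sites. Degs1iGKO mice (iGKO below) carried the same alleles and Rosa26-CreERT2, a Cre recombinase expressed throughout the body that acts only after tamoxifen, so that the deletion was not limited to 1 kidney cell type. Degs1 encodes the desaturase that turns dihydroceramide into ceramide. Both genotypes received 3 mg tamoxifen on 5 consecutive days at 9 weeks of age, and underwent surgery at 12 weeks. Mice labelled IRI had both renal pedicles clamped for 28 min (bilateral ischaemia reperfusion injury), whereas sham mice had the same anaesthesia and incisions with no clamp, and tissue was taken at 24 h. The labels number the libraries of a group 1 to 4 without saying that each came from a different mouse, so that p-values measure the spread between these libraries.

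Lysosomes are acidic compartments in which hydrolases break down proteins, glycans and lipids that arrive by endocytosis and autophagy. Proximal tubule cells are rich in them, because they take up filtered protein by megalin-dependent endocytosis and degrade it there. The hydrolases are made as precursors and sorted to the lysosome by mannose 6-phosphate tags or by partners such as LIMP-2, the product of Scarb2. TFEB and TFE3 are kept in the cytosol by the kinase mTORC1 and enter the nucleus when lysosomes are stressed or nutrients are short, where they bind promoters of lysosomal genes at E-box motifs. Their activity is thus set largely by location, which RNA levels do not report.

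Library totals ran from 12704273 to 18816343 counts, with 24328 to 25818 gene IDs holding at least 1 read. Degs1 was at 84.0 to 113 CPM (a gene's counts relative to the TMM-scaled total of its library) in fl/fl sham and 40.2 to 71.7 CPM in iGKO sham, and at 88.8 to 133 CPM in fl/fl IRI and 44.7 to 59.8 CPM in iGKO IRI, so that no iGKO library reached a fl/fl library. Havcr1, the tubular injury marker KIM-1, was at 101 CPM in fl/fl IRI 1 and from 710.3 up to 1666 CPM in fl/fl IRI 2 to 4, against 4.15 to 24.7 CPM in fl/fl sham and 28.0 to 122 CPM in iGKO IRI. In iGKO sham it was at 13.2 to 21.7 CPM in 3 libraries and 126 CPM in iGKO sham 2, above every iGKO IRI library, and the summed level of 7 injured tubule markers was also highest there among the 8 sham libraries (2260 CPM, against 696 to 1443 CPM). The summed level of 10 proximal tubule markers was 18584 to 20168 CPM in fl/fl sham, 16871 to 20098 CPM in iGKO sham, 3696 to 14298 CPM in fl/fl IRI (highest in fl/fl IRI 1) and 11875 to 15541 CPM in iGKO IRI. Proximal tubule markers, which define the labelled tissue, were thus present in all 16 libraries and lower after IRI. Mitochondrial genes took 0.443% of counts in iGKO sham 4 and 2.05% to 6.48% elsewhere. In bulk tissue, fewer cells of a type and less RNA per cell cannot be told apart, which holds for every value below.

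The promoters of several of the 38 genes hold the core of the motif that TFEB and TFE3 bind, and 6 are printed here because they show it in members that rose, fell and were not called after IRI. RefSeq promoter entries (GRCm38.p6, 250 bases before to 50 after a gene's start) were at hand for 35 of the 38 genes, with none matched for Ctsb, Ctsh and Npc1. The motif TCACGTG, searched on both strands, was present in 9 of the 35 (25.7%), against 1237 of 32851 entries (3.77%) and 1160 of 27025 genes (4.29%). The shorter CACGTG, which every TCACGTG contains, was present in 11 of the 35 (31.4%), against 7.15% of entries and 8.09% of genes. Each line gives a stretch of the gene's own strand, 5′ to 3′, with capitals for bases covered by TCACGTG on either strand (its reverse complement reads CACGTGA, and the 2 overlap where both are present).
Ctsd (chr7:142387892-142387951, minus strand): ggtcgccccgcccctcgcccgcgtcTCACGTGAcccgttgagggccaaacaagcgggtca
Gla (chrX:134601166-134601225, minus strand): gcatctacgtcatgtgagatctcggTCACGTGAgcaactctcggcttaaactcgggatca
Glb1 (chr9:114401003-114401062, plus strand): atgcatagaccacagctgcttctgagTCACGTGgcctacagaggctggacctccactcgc
Gaa (chr11:119267796-119267855, plus strand): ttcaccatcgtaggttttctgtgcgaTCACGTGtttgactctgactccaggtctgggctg
Lamp1 (chr8:13159099-13159160, plus strand): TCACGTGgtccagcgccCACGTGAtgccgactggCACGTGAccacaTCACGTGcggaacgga
Mcoln1 (chr8:3500447-3500507, plus strand): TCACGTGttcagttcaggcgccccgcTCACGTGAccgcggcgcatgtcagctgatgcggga

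All 6 windows lie before the annotated start, outside exons of the gene's entry. Lamp1 holds 4 matches within 62 bases and Mcoln1 2 positions within 61 bases, whereas Ctsd and Gla hold a further match outside the window printed, at 245 and 228 bases before the start. Ctsd and Gla rose after IRI in fl/fl, Glb1 and Gaa fell, and Lamp1 and Mcoln1 were not called (values below). TCACGTG was present in 2 of 6 promoters of genes called higher, 2 of 6 of those called lower and 5 of 23 of those not called. Ctsa, Naglu and Sgsh were the other members that held it. A match describes letters only and shows no binding.

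Compared per kilobase of exon, the genes spanned a 309-fold range in fl/fl sham cortex. Psap, the precursor of the saposins that present sphingolipids to hydrolases, had the highest level at 697 CPM per kb, followed by Lamp1, an abundant glycoprotein of the lysosomal membrane, at 289 CPM per kb. Cd63, a tetraspanin of late endosomes, stood at 161 CPM per kb, next to Ctsd, the aspartic endopeptidase cathepsin D, at 157 CPM per kb. Psap varied from 1477 to 2817 CPM between fl/fl sham libraries, so its place was set apart by more than that spread, whereas Cd63 (503.5 to 669 CPM) and Ctsd (343 to 408 CPM) are neighbours whose order per kb does not exceed theirs. Ctsb, Gm2a and Neu1 followed at 95.2, 93.6 and 91.2 CPM per kb, also within their spread of each other. In all, 12 of the 38 genes exceeded 50 CPM per kb. At the other end were 10 genes under 10 CPM per kb, among them Tfeb (8.27), Tfe3 (3.72), Ctsk (3.01) and Gla (2.26 CPM per kb).

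Summed over the 38 genes, levels overlapped between the groups, at 7849 to 9610 CPM in fl/fl sham, 8395 to 9417 CPM in iGKO sham, 8273 to 10797 CPM in fl/fl IRI and 8650 to 9807 CPM in iGKO IRI. The mean sum was 8436 CPM in fl/fl sham, 9757 CPM in fl/fl IRI, 8740 CPM in iGKO sham and 9323 CPM in iGKO IRI. All fl/fl IRI libraries but fl/fl IRI 3 exceeded every fl/fl sham library. Psap gave 2817 CPM of the highest fl/fl sham sum, that of fl/fl sham 2. The sum hid opposite movements. In fl/fl, 8 of the 38 genes rose after IRI and 6 fell at an adjusted p of 0.05 (edgeR quasi-likelihood test, adjusted over all 17972 genes), whereas 8.46% of all genes tested rose and 7.01% fell. The count of 6 was 1 (Glb1) in 6 of 16 fits that left out 1 library, those without any 1 of the fl/fl sham libraries or fl/fl IRI 3 or 4, in which 3.07% to 5.18% of all genes fell. It was 2 or 3 without fl/fl IRI 2, iGKO IRI 3 or any 1 of iGKO sham 1 to 3. In those fits 5.04% to 6.13% of all genes fell. The count of 8 was 5 without fl/fl sham 3, where 4.43% of all genes rose. The lysosomal endopeptidases Ctsd, Ctsb and Ctsl, progranulin (Grn), alpha-galactosidase (Gla), the cholesterol exporter Npc1, the membrane receptor Scarb2 and the factor Tfe3 were higher. Beta-galactosidase (Glb1), the GM2 activator (Gm2a), the thioesterase Ppt1, cathepsin F (Ctsf), acid alpha-glucosidase (Gaa) and iduronate 2-sulfatase (Ids) were lower. The median log2 fold change of the 38 was -0.14, against 0.01 for all genes tested, with 15 of the 38 above 0. Levels did not overlap between the groups, with fl/fl IRI above, for 9 of the 38 genes (9.65% of all genes tested), and with fl/fl IRI below for 5 (9.82% of all genes tested). Beside these values, 8 of 10 proximal tubule markers fell in fl/fl (median -1.32), 7 of 7 markers of injured tubule rose, and 8 of 8 tested neutrophil markers rose, from sums of 6.68 to 15.8 CPM to sums of 31.7 to 261 CPM. The part of altered cell composition in the results for the 38 genes was not tested. The fl/fl IRI libraries also differed among themselves. The median gene of the 38 was at -0.27 and -0.30 relative to the fl/fl sham mean (log2 of CPM + 0.5) in fl/fl IRI 3 and 4, at -0.07 in fl/fl IRI 2 and at 0.01 in fl/fl IRI 1, the library with the least Havcr1 of the 4.

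**Figure D1:**
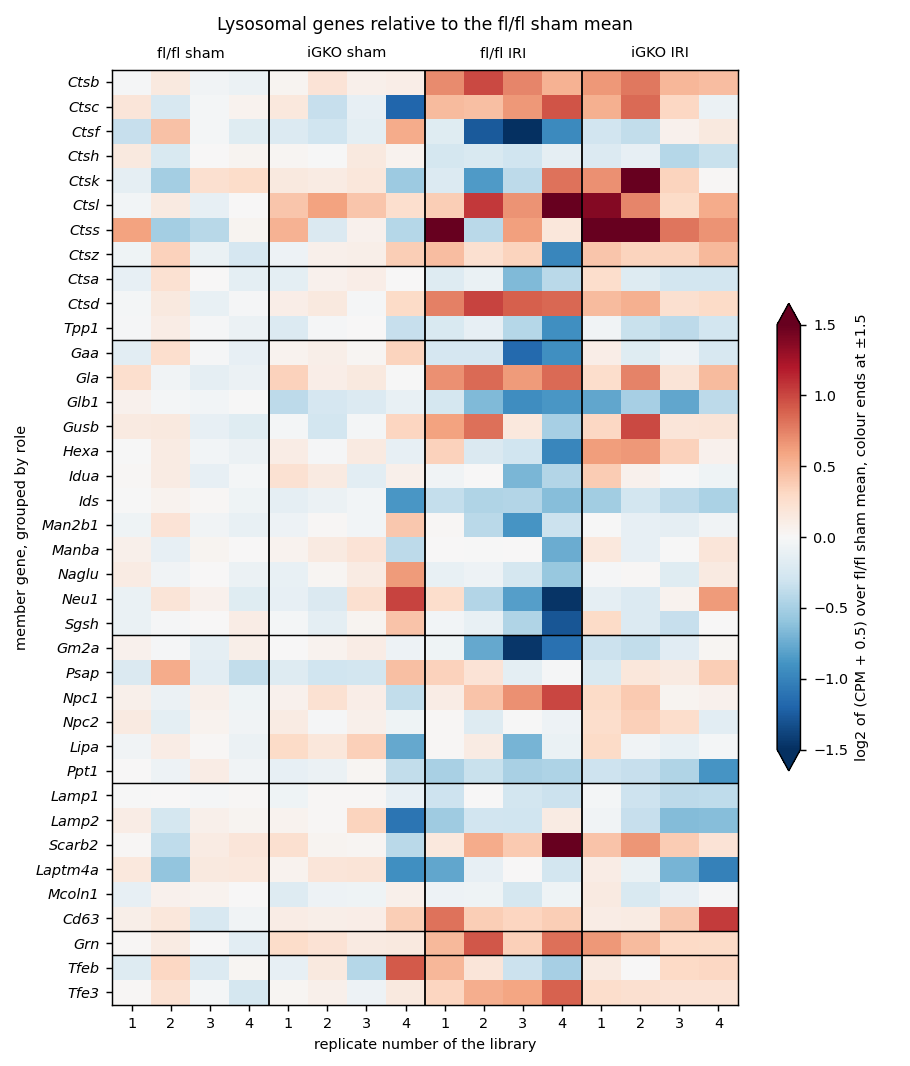
Level of each of the 38 genes (rows, grouped by role) in each of the 16 libraries (columns, by group and replicate number) as log2 of CPM + 0.5 relative to the mean of the 4 fl/fl sham libraries, with red above and blue below that mean and colours ending at 1.5 in both directions. Ctsb, Ctsd and Gla are red in all 4 fl/fl IRI libraries and Glb1 is blue in them, while Ctsf, Gm2a and Neu1 are blue in fl/fl IRI 2 to 4.

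Among the papain-like cathepsins, Ctsb and Ctsl rose in fl/fl and Ctsf fell, and the other 5 did not pass the test. Ctsb (ENSMUSG00000021939), an endopeptidase that also trims dipeptides from protein ends, was at 570.1, 639.8, 554 and 541 CPM in fl/fl sham 1 to 4 and 945, 1142, 958 and 827 CPM in fl/fl IRI 1 to 4. In iGKO it was at 593, 666, 609 and 615 CPM after sham and 907, 997, 814 and 791 CPM after IRI. No IRI library overlapped a sham library of its genotype. The fl/fl difference was 0.75 ± 0.14 (log2 fold change ± SE, adjusted p = 0.00316), a 1.68-fold ratio of means. In iGKO it was 0.50 ± 0.14 (adjusted p = 0.506).

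Ctsl, an endopeptidase of broad protein turnover, was at 380.3, 430.1, 359.5 and 393 CPM in fl/fl sham and 506, 817, 624 and 2786 CPM in fl/fl IRI, the last of these more than 3 times the next. iGKO sham held 520.2, 592, 522 and 467 CPM and iGKO IRI 1013, 650.4, 476 and 575 CPM. All 4 fl/fl IRI libraries exceeded fl/fl sham, and so did all 4 iGKO sham libraries, whereas iGKO IRI overlapped iGKO sham. In fl/fl, Ctsl rose by 1.599 ± 0.41 on the log2 scale (adjusted p = 0.0168), which became 0.73 ± 0.22 without fl/fl IRI 4 (adjusted p = 0.0481). Leaving out fl/fl sham 3 ended the call (adjusted p = 0.0525), as did a fit of the 2 compared groups alone (adjusted p = 0.0654).

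Ctsf, a cathepsin whose loss in people causes a neuronal storage disease, was at 42.9, 73.8, 53.2 and 48.0 CPM in fl/fl sham and 47.8, 22.4, 13.3 and 27.9 CPM in fl/fl IRI. iGKO libraries held 47.1, 44.4, 49.2 and 80.2 CPM after sham and 44.6, 42.1, 57.0 and 60.3 CPM after IRI. Only fl/fl IRI 1 overlapped fl/fl sham, and the other 3 lay under all 12 libraries of the other groups. The fl/fl difference of -0.97 ± 0.31 (adjusted p = 0.0422) lost its call in 12 of 16 fits that left out 1 library, all but those without fl/fl IRI 1, iGKO sham 4, iGKO IRI 2 or iGKO IRI 4. Its adjusted p reached 0.119 without fl/fl sham 2. The iGKO difference was -0.11 ± 0.30 (adjusted p = 0.993).

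Ctsc, the dipeptidyl peptidase that activates serine proteases of neutrophil and lymphocyte granules, lay at 25.6 to 34.6 CPM in fl/fl sham and 41.6 to 58.8 CPM in fl/fl IRI without overlap, a difference of 0.65 ± 0.25 (adjusted p = 0.0829) that passed the threshold without iGKO sham 4 (adjusted p = 0.0239), where its level was 13.0 CPM, and in a fit of the 2 groups alone (0.0341). The aminopeptidase Ctsh and the carboxypeptidase Ctsz did not pass the test in fl/fl, with -0.23 ± 0.12 and 0.11 ± 0.23. Ctsh was at 122 to 136 CPM in iGKO sham and 90.5 to 112 CPM in iGKO IRI, which did not overlap. That difference was -0.33 ± 0.12 with an adjusted p of 0.641.

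Ctss and Ctsk, cathepsins of antigen-presenting cells and of collagen-degrading cells such as osteoclasts, each had 1 IRI library far above the others of its group. Ctss was at 47.5, 21.6, 23.1 and 31.9 CPM in fl/fl sham, 44.7, 26.5, 32.4 and 22.9 CPM in iGKO sham, 189, 23.3, 47.7 and 34.9 CPM in fl/fl IRI and 90.0, 139, 54.7 and 49.6 CPM in iGKO IRI. In fl/fl the groups overlapped, with fl/fl IRI 1 far above, and in iGKO all 4 IRI libraries exceeded all 4 sham libraries. The fl/fl difference was 1.25 ± 0.53 (adjusted p = 0.118) and 0.19 ± 0.37 without fl/fl IRI 1 (adjusted p = 0.755). The iGKO difference was 1.40 ± 0.53 (adjusted p = 0.678), and 1.40 ± 0.34 without fl/fl IRI 1, a library of another group (adjusted p = 0.297). The summed level of 16 macrophage markers was 201 to 479 CPM in fl/fl sham, 228 to 380.1 CPM in iGKO sham, 1175 CPM in fl/fl IRI 1, 342 to 410 CPM in fl/fl IRI 2 to 4, and 372 to 966 CPM in iGKO IRI. Of these 16 markers, 11 had values above 0 in fl/fl after IRI, and 2 were called higher there (Cd14 and Chil3). None were called in iGKO, where all 16 had values above 0. Between iGKO IRI and fl/fl IRI, 1 of the 16 was called lower and 14 had values above 0. Libraries with high Ctss were thus those with a high macrophage sum, and the part of such cells in the Ctss values was not tested.

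Ctsk was at 4.11, 3.05, 5.45 and 5.59 CPM in fl/fl sham, 5.11, 5.01, 5.20 and 2.96 CPM in iGKO sham, 3.90, 2.30, 3.34 and 8.41 CPM in fl/fl IRI and 7.65, 48.9, 5.88 and 4.59 CPM in iGKO IRI. All groups overlapped, and only iGKO IRI 2 stood far above the rest. Its iGKO difference of 1.87 ± 0.62 (adjusted p = 0.629) was 0.40 ± 0.38 without that library (adjusted p = 0.999). In fl/fl the difference was -0.02 ± 0.62, and -0.02 ± 0.36 without iGKO IRI 2, a library of another group. The summed level of 4 fibroblast and mural cell markers (Pdgfrb, Pdgfra, Col1a1 and Dcn) was 433 to 605 CPM in fl/fl sham, 411 to 883 CPM in iGKO sham and 391 to 887 CPM in fl/fl IRI. In iGKO IRI 2 it was 4125 CPM, against 675 to 1139 CPM in the other iGKO IRI libraries. Most of that sum was Col1a1 at 3598 CPM, and Dcn (212 CPM) and Pdgfra (133 CPM) were also at their highest in this library, whereas Pdgfrb was at 183 CPM there and at 184 CPM in iGKO IRI 1. Of 4 osteoclast markers, Ocstamp and Dcstamp were near 0, at 0.123 and 0.493 CPM in iGKO IRI 2, and the sum of the 4 was 39.2 to 50.8 CPM in iGKO IRI against 45.9 to 56.6 CPM in iGKO sham, nearly all of it Acp5. The part of connective tissue in the Ctsk value was not tested.

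**Figure D2:**
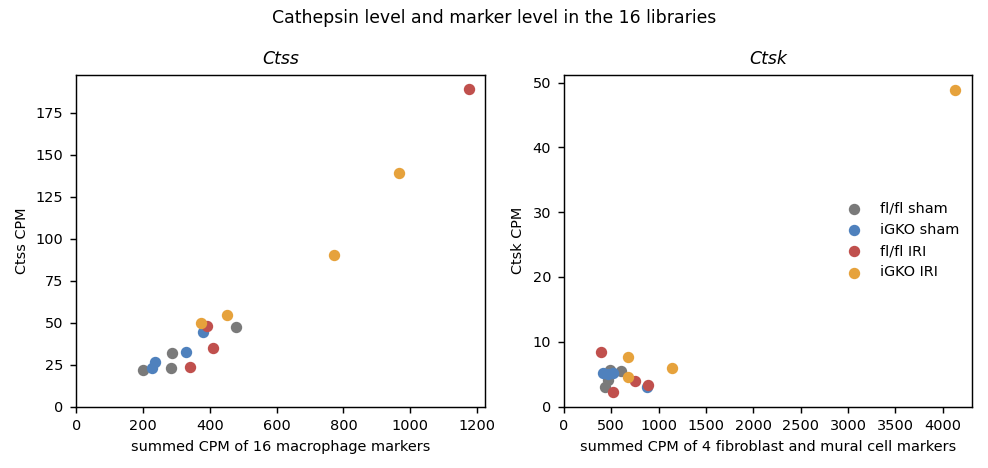
Level of Ctss against the summed level of 16 macrophage markers (left) and of Ctsk against the summed level of 4 fibroblast and mural cell markers (right), all in CPM, with 1 point per library coloured by group. fl/fl IRI 1 lies at 189 CPM of Ctss and 1175 CPM of markers, and iGKO IRI 2 lies at 48.9 CPM of Ctsk and 4125 CPM of markers, each apart from the other points.

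Of the peptidases outside the papain family, Ctsd rose in fl/fl, while Tpp1 and Ctsa did not pass the test. Ctsd (ENSMUSG00000007891), the main aspartic endopeptidase of the lysosome, was at 364, 408, 343 and 365 CPM in fl/fl sham and 627, 751, 688 and 674 CPM in fl/fl IRI. iGKO sham held 397, 408, 367 and 451 CPM and iGKO IRI 516, 535, 439 and 452 CPM. All 4 fl/fl IRI libraries lay above the other 12, and iGKO IRI overlapped iGKO sham. Ctsd had the smallest adjusted p of the 38 genes in fl/fl, with a rise of 0.89 ± 0.13 (adjusted p = 0.000889), a 1.85-fold ratio of means. In iGKO the difference was 0.26 ± 0.13 (adjusted p = 0.795), a ratio of 1.20. Tpp1, the tripeptidyl peptidase lost in a childhood storage disease, was at 198 to 227 CPM in fl/fl sham and 111 to 193 CPM in fl/fl IRI without overlap, a difference of -0.39 ± 0.16 (adjusted p = 0.102). Ctsa, a carboxypeptidase that also protects beta-galactosidase and neuraminidase in a complex, differed by -0.33 ± 0.16 (adjusted p = 0.174).

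The fl/fl differences were below 0 for most glycosidases and sulfatases, which strip sugars and sulfate groups from glycans and glycolipids. Of the 12, Glb1, Gaa and Ids fell, Gla rose and 8 did not pass the test, with a median log2 fold change of -0.32 and 2 of the 12 above 0. Glb1 (ENSMUSG00000045594), the beta-galactosidase that removes terminal galactose from GM1 ganglioside and keratan sulfate, was at 169, 157, 156 and 159.8 CPM in fl/fl sham and 134, 101, 84.1 and 87.4 CPM in fl/fl IRI. In iGKO it was at 122, 134, 139.7 and 148 CPM after sham and 93.5, 113, 93.4 and 122 CPM after IRI. Levels did not overlap between IRI and sham in either genotype. The margin in iGKO was slight, from 121.76 CPM at most after IRI to 122.16 CPM at least after sham. The iGKO sham libraries also lay under fl/fl sham. The fl/fl difference was -0.66 ± 0.15 (adjusted p = 0.00912) and the iGKO difference -0.37 ± 0.15 (adjusted p = 0.703).

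Gla, the alpha-galactosidase deficient in Fabry disease, moved the other way from a low level. It was at 8.85, 7.07, 6.64 and 6.92 CPM in fl/fl sham and 12.2, 13.7, 11.7 and 13.7 CPM in fl/fl IRI, which did not overlap. iGKO sham held 9.46, 7.92, 8.21 and 7.34 CPM and iGKO IRI 8.91, 12.7, 8.47 and 10.5 CPM, which did. The smallest raw count of Gla in a library was 95. Gla rose by 0.80 ± 0.17 in fl/fl (adjusted p = 0.00741), against 0.30 ± 0.17 in iGKO (adjusted p = 0.875).

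Gaa, the acid glucosidase that degrades lysosomal glycogen, was at 122, 162, 134 and 125 CPM in fl/fl sham and 114, 114, 60.4 and 71.3 CPM in fl/fl IRI. iGKO levels of Gaa were 141, 144, 139 and 172 CPM after sham and 146, 119, 129 and 114 CPM after IRI. The low libraries were fl/fl IRI 3 and 4, and fl/fl IRI lay under fl/fl sham without overlap. Its fl/fl difference of -0.59 ± 0.19 (adjusted p = 0.0423) lost its call in 11 of 16 fits that left out 1 library, all but those without fl/fl IRI 1 or 2, iGKO sham 4, or iGKO IRI 1 or 4, with an adjusted p of up to 0.126 without fl/fl IRI 3. Ids, which removes sulfate from heparan and dermatan sulfate, was at 67.3 to 72.6 CPM in fl/fl sham and 44.9 to 54.6 CPM in fl/fl IRI. Its difference of -0.47 ± 0.16 (adjusted p = 0.0493) kept its call only without fl/fl IRI 1 or iGKO sham 4, with an adjusted p of up to 0.118 without fl/fl IRI 4.

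The other 8 glycan-degrading enzymes gave fl/fl differences from -0.48 ± 0.32 for the sialidase Neu1 to 0.36 ± 0.25 for the beta-glucuronidase Gusb. Neu1 spanned 122 to 409 CPM within fl/fl IRI, highest in fl/fl IRI 1, against 299.5 to 389 CPM in fl/fl sham. Man2b1, an alpha-mannosidase, was not called with all libraries (-0.37 ± 0.17, adjusted p = 0.154) and was called lower without fl/fl IRI 1 (-0.52, adjusted p = 0.0296), in which its level was 228 CPM against 121 to 179 CPM in the other 3. Hexa, the alpha subunit of beta-hexosaminidase, was -0.22 ± 0.21 in fl/fl and 0.42 ± 0.21 in iGKO, with neither passing the test. Idua, Manba, Naglu and Sgsh, which act on dermatan and heparan sulfate or on mannosides, had adjusted p-values of 0.311, 0.586, 0.33 and 0.249 in fl/fl.

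Among the proteins of lipid handling, Gm2a and Ppt1 fell in fl/fl, Npc1 rose, and Psap, Npc2 and Lipa did not pass the test. Gm2a, which lifts GM2 ganglioside out of membranes for hydrolysis, was at 403, 381, 352 and 409 CPM in fl/fl sham and 369.9, 227, 140.5 and 177 CPM in fl/fl IRI, with fl/fl IRI 1 inside the sham range and the other 3 under it. In iGKO it was at 387, 402, 416 and 365 CPM after sham and 308, 298, 344 and 393 CPM after IRI. The fl/fl difference of -0.76 ± 0.22 (adjusted p = 0.0302) lost its call without any 1 of the fl/fl sham libraries or fl/fl IRI 2, 3 or 4 (adjusted p up to 0.0855), and the iGKO difference was -0.22 ± 0.22 (adjusted p = 0.979).

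Npc1, the membrane protein that moves cholesterol out of the lysosome, was at 45.1, 40.3, 45.0 and 40.7 CPM in fl/fl sham and 46.1, 57.6, 69.1 and 86.0 CPM in fl/fl IRI. iGKO levels of Npc1 were 44.7, 50.2, 45.9 and 32.9 CPM after sham and 52.3, 56.2, 44.0 and 44.9 CPM after IRI. The fl/fl groups did not overlap, by a margin of under 1 CPM at fl/fl IRI 1, and the iGKO groups did. The fl/fl rise of 0.60 ± 0.18 (adjusted p = 0.032) lost its call without any 1 of the fl/fl sham libraries or fl/fl IRI 3 or 4 (adjusted p up to 0.104). Npc2, the soluble partner that hands cholesterol to Npc1, differed by -0.06 ± 0.12 (adjusted p = 0.776).

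Ppt1, which removes fatty acids from proteins, was at 68.8, 64.9, 74.3 and 65.8 CPM in fl/fl sham and 48.8, 54.4, 48.8 and 49.7 CPM in fl/fl IRI. iGKO sham held 62.7, 64.5, 70.0 and 52.8 CPM and iGKO IRI 55.2, 53.7, 49.98 and 36.9 CPM. All 4 fl/fl IRI libraries lay under all fl/fl sham libraries, in a narrow band. Its difference of -0.44 ± 0.14 (adjusted p = 0.0371) lost its call in 9 of 16 fits, those without any 1 of the fl/fl sham libraries, fl/fl IRI 3 or 4, iGKO sham 1 or 2, or iGKO IRI 3, with an adjusted p of up to 0.106. Lipa, the acid lipase of cholesteryl esters, and Psap differed by -0.13 ± 0.22 and 0.11 ± 0.23 (adjusted p = 0.724 and 0.793).

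Of the 6 membrane proteins, only Scarb2 passed the test. Scarb2, the receptor LIMP-2 that carries beta-glucocerebrosidase to the lysosome, was at 100.3, 76.5, 108 and 113 CPM in fl/fl sham and 111, 147, 131 and 291 CPM in fl/fl IRI, highest by far in fl/fl IRI 4, and the groups overlapped. The iGKO libraries held 118, 103, 102 and 74.8 CPM after sham and 134, 157, 129 and 115 CPM after IRI. Its rise of 0.77 ± 0.25 (adjusted p = 0.045) became 0.38 without fl/fl IRI 4 (adjusted p = 0.177), and the call was kept only without fl/fl IRI 1 or 3 or iGKO sham 4.

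Mcoln1, the calcium channel TRPML1 through which lysosomes activate TFEB, did not pass the test in any comparison. It was at 51.8, 59.2, 58.3 and 56.5 CPM in fl/fl sham, 49.2, 53.6, 53.8 and 59.4 CPM in iGKO sham, 53.7, 54.0, 46.9 and 54.0 CPM in fl/fl IRI and 61.9, 48.2, 51.6 and 55.7 CPM in iGKO IRI. The groups overlapped throughout, with differences of -0.11 ± 0.11 in fl/fl and 0.01 ± 0.11 in iGKO. Lamp1 and Lamp2, the main glycoproteins of the lysosomal membrane, differed by -0.22 ± 0.13 and -0.23 ± 0.24 in fl/fl and by -0.24 ± 0.13 and -0.32 ± 0.24 in iGKO, none of which passed the test. Cd63 lay at 503.5 to 669 CPM in fl/fl sham and 741 to 1048 CPM in fl/fl IRI without overlap (0.48 ± 0.20, adjusted p = 0.112), and passed the threshold only in the fit without iGKO IRI 4 (adjusted p = 0.0499). Laptm4a, a transporter-like protein of late endosomes, differed by -0.27 ± 0.28.

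Grn encodes progranulin, a secreted protein that is cut to granulins in the lysosome and is needed for the function of several hydrolases there. It was at 163, 176, 161 and 144 CPM in fl/fl sham and 226, 307, 206 and 285 CPM in fl/fl IRI. iGKO sham held 195, 187, 177 and 179 CPM and iGKO IRI 254, 224, 198 and 197 CPM. In both genotypes IRI lay above sham without overlap, and iGKO sham lay above fl/fl sham. The fl/fl rise was 0.67 ± 0.14 (adjusted p = 0.00694), a ratio of 1.59, and the iGKO difference 0.24 ± 0.14 (adjusted p = 0.893), a ratio of 1.18.

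Of the related factors, Tfe3 rose in fl/fl and Tfeb did not pass the test. Tfe3 was at 34.9, 40.4, 33.9 and 28.6 CPM in fl/fl sham and 43.1, 50.7, 52.0 and 64.2 CPM in fl/fl IRI, and at 35.1, 36.5, 32.6 and 38.1 CPM in iGKO sham and 41.5, 41.0, 40.1 and 40.1 CPM in iGKO IRI. IRI lay above sham without overlap in both genotypes, and iGKO IRI lay in a narrow band under all fl/fl IRI libraries. The fl/fl rise was 0.61 ± 0.14 (adjusted p = 0.00888), against 0.19 ± 0.14 in iGKO (adjusted p = 0.945). Tfeb was at 41.1, 58.2, 40.5 and 47.7 CPM in fl/fl sham, 43.0, 52.0, 34.6 and 89.4 CPM in iGKO sham, 66.5, 53.2, 37.5 and 32.9 CPM in fl/fl IRI and 51.4, 47.0, 57.6 and 58.2 CPM in iGKO IRI. Its groups overlapped throughout, the highest library was iGKO sham 4, and the differences were 0.02 ± 0.26 in fl/fl and -0.03 ± 0.26 in iGKO. Whether the responses of Tfe3 and Tfeb differ from each other was not tested.

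**Figure D3:**
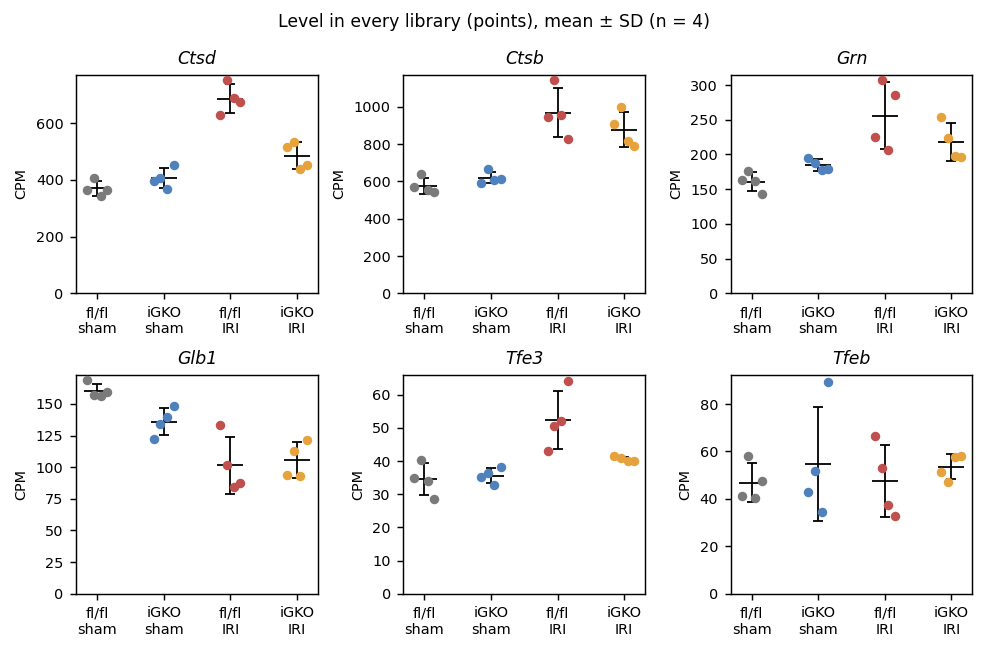
Level in CPM of Ctsd, Ctsb, Grn, Glb1, Tfe3 and Tfeb in each library (points) of the 4 groups (horizontal axis), with the mean and SD of 4 libraries as bars and a vertical axis that starts at 0. Ctsd, Ctsb, Grn and Tfe3 are higher and Glb1 lower in all 4 fl/fl IRI libraries than in fl/fl sham, with the iGKO IRI mean of Ctsd between those of iGKO sham and fl/fl IRI, and Tfeb overlaps in all groups.

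Of the 14 genes called in fl/fl, Ctsb, Ctsd, Gla, Grn, Tfe3 and Glb1 kept their call in all 16 fits that left out 1 library and under the other alternatives that were run, Ctsl lost it in 1 such fit, and 7 lost it in 6 to 14. In iGKO, 0 of the 38 genes were called after IRI in either direction by edgeR, as were 0% of all genes tested, with 7 of the 38 at an unadjusted p under 0.05 (1145 of all genes). The smallest adjusted p was 0.506, for Ctsb, which was also the 1 gene of the 38 that DESeq2 called there (adjusted p = 0.0159), beside 0.211% of all genes called higher and 0.0278% lower by that tool. The median log2 fold change was 0.02, against -0.02 for all genes tested. Levels did not overlap, with iGKO IRI above, for 4 of the 38 (Ctsb, Ctss, Grn and Tfe3, 2.24% of all genes tested) and with iGKO IRI below for 2 (Ctsh and Glb1, 2.76% of all genes tested). All 14 genes called in fl/fl had the same sign in iGKO and a smaller size there. Since they were picked by their fl/fl values, this count describes them and is no test of a difference between the genotypes, which the interaction below gives.

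**Figure D4:**
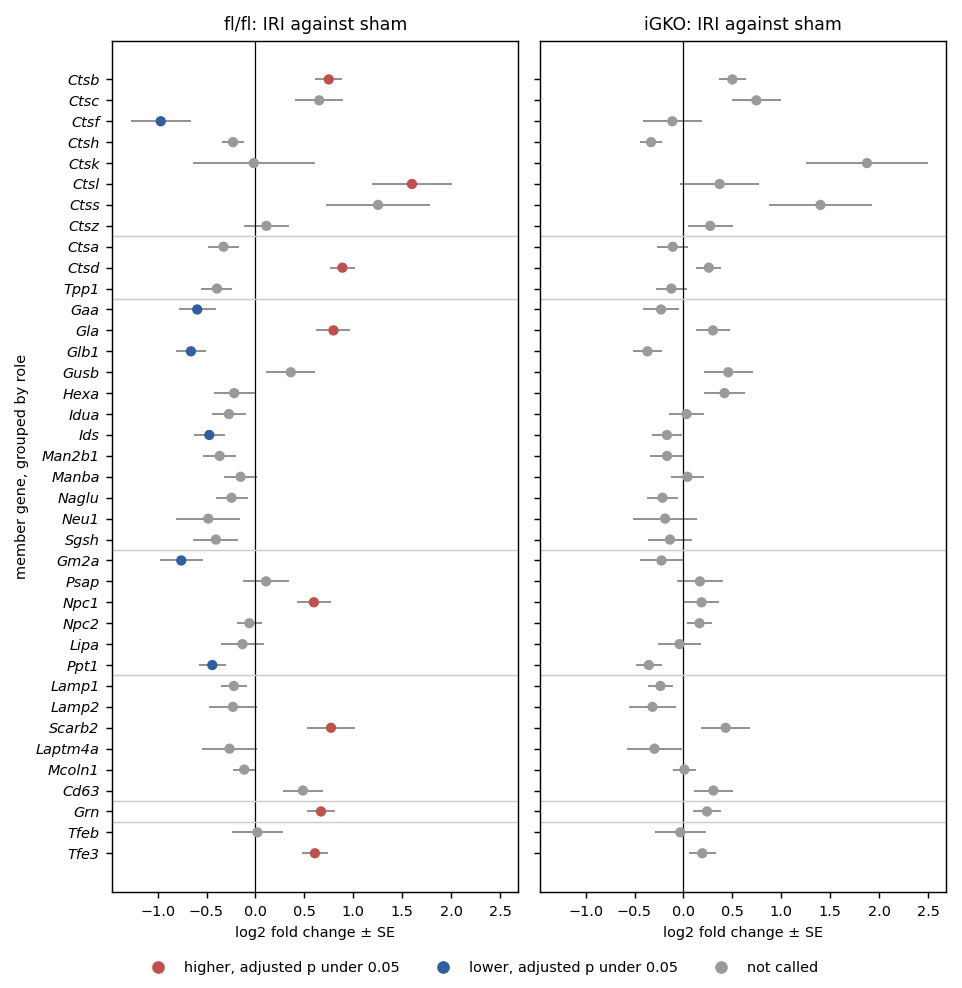
Log2 fold change of IRI against sham (points) with its SE (lines) for the 38 genes, grouped by role, in fl/fl (left) and iGKO (right), with red for genes called higher, blue for genes called lower and grey for genes not called at an adjusted p of 0.05. The left panel holds 8 red and 6 blue points, and the right panel holds grey points only, with wide lines for Ctsk, Ctsl and Ctss.

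The sham groups tell whether loss of Degs1 was accompanied by other levels of these genes without ischaemia. By edgeR, 0 of the 38 were called in either direction (0% of all genes tested in both), 0 had an unadjusted p under 0.05 (210 of all genes), and DESeq2 called 0 (0% of all genes). Degs1 itself was not called by edgeR in this comparison (-0.82 ± 0.18, unadjusted p = 0.000316, adjusted p = 1), although its levels did not overlap, so that the counts of 0 do not show that levels were alike. The differences ran from -0.30 ± 0.25 for Ctsc to 0.43 ± 0.40 for Ctsl. Levels did not overlap, with iGKO sham above, for Ctsl and Grn (1.05% of all genes tested) and with iGKO sham below for Glb1 (0.874%). Those differences were 0.43 ± 0.40, 0.20 ± 0.14 and -0.24 ± 0.15. The SE of Ctsl drew on the spread of all groups, and its sham difference was 0.43 ± 0.21 without fl/fl IRI 4.

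After IRI, the genotypes were compared directly. With all libraries, edgeR called 0 of the 38 genes higher and 0 lower in iGKO IRI than in fl/fl IRI, against 0.178% and 0.673% of all genes tested, with 9 of the 38 at an unadjusted p under 0.05 (3440 of all genes). Ctsd had the smallest adjusted p, with a value of -0.50 ± 0.13 (adjusted p = 0.067), followed by Hexa at 0.67 ± 0.21 (adjusted p = 0.12), Ctsk at 1.90 ± 0.62 (adjusted p = 0.129) and Ctsf at 0.87 ± 0.31 (adjusted p = 0.149). Levels did not overlap, with iGKO IRI below, for Ctsd and Tfe3 (3.04% of all genes tested) and with iGKO IRI above for Gaa (2.48%). The margin for Gaa was slight, from 114.04 CPM at most in fl/fl IRI to 114.46 CPM at least in iGKO IRI. DESeq2 called Ctsd lower (adjusted p = 0.00226) and Ctsk and Hexa higher (adjusted p = 0.0279 and 0.0484), 1 and 2 of the 38 beside 2.97% and 2.27% of all genes. The Ctsk value was 0.43 ± 0.38 without iGKO IRI 2. The median log2 difference of the 38 was 0.08, against -0.01 for all genes tested.

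The count of 0 by edgeR rested on fl/fl IRI 1, the library with 101 CPM of Havcr1. That level lay within the range of iGKO IRI (28.0 to 122 CPM), and no fit left out an iGKO IRI library together with it. Fits without it thus set the fl/fl IRI libraries with more Havcr1 against the whole iGKO IRI group, and their calls cannot be separated from that choice. Without fl/fl IRI 1, 6 of the 38 genes were called higher in iGKO IRI and 3 lower, beside 6.97% and 6.6% of all genes. The 6 were Hexa (0.92, adjusted p = 0.0052), Gm2a (0.89, adjusted p = 0.00269), Ctsf (1.26, adjusted p = 0.00746), Gaa (0.64, adjusted p = 0.0382), Neu1 (0.98, adjusted p = 0.0434) and Ctss (1.24, adjusted p = 0.0397). Gm2a, Ctsf and Gaa of these were among the genes lower after IRI in fl/fl. The 3 lower genes were Ctsd (-0.54, adjusted p = 0.0151), Tfe3 (-0.45, adjusted p = 0.0374) and Npc1 (-0.52, adjusted p = 0.0463), each of them higher after IRI in fl/fl. Without both fl/fl IRI 1 and iGKO sham 4, the counts were 7 (Man2b1 added, 0.45, adjusted p = 0.0275) and 3, beside 10.1% and 10.8% of all genes. Leaving out any other single library gave 0 in both directions. These comparisons share the fl/fl IRI libraries with that of IRI and sham in fl/fl. The sum of proximal tubule markers was higher in all iGKO IRI libraries than in fl/fl IRI 2, 3 and 4. The sum of injured tubule markers was lower in them, at 1438 to 3180 CPM, against 9161 to 14911 CPM in those fl/fl IRI libraries. The part of the cells behind either sum in the result was not tested.

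The interaction asks whether the response to IRI differed between genotypes. By edgeR, 0 of the 38 genes were called with a higher and 0 with a lower response in iGKO (0% of all genes tested in both), and 6 had an unadjusted p under 0.05 (2033 of all genes). The 6 were Ctsd at -0.63 ± 0.18 (adjusted p = 0.271), Tfe3 at -0.41 ± 0.19, Grn at -0.43 ± 0.20, Ctsl at -1.23 ± 0.57, Hexa at 0.64 ± 0.30 and Ctsk at 1.89 ± 0.88, the last 5 with adjusted p-values of 0.43 to 0.44. The Ctsl value fell to -0.36 ± 0.30 without fl/fl IRI 4, and the Ctsk value to 0.42 ± 0.52 without iGKO IRI 2. DESeq2 called Ctsd (-0.61, adjusted p = 0.0295), beside 0.451% of all genes called lower and 0.172% higher. Without fl/fl IRI 1, edgeR called Ctsd lower (-0.67, adjusted p = 0.0482) and Gm2a higher (0.86, adjusted p = 0.0369), beside 2.15% and 2.07% of all genes. Without both fl/fl IRI 1 and iGKO sham 4 it called these 2 and Ctsf (1.49, adjusted p = 0.0148), beside 4.3% of all genes lower and 3.86% higher. A smaller rise of Ctsd in iGKO was thus called by 1 of 2 tools with all libraries, and by edgeR only in fits without fl/fl IRI 1. That library held the lowest Ctsd of fl/fl IRI (627 CPM, against 674 to 751 CPM), so leaving it out raised the fl/fl IRI mean. edgeR did not call Ctsd with RLE in place of TMM scaling, with no filter on low counts, with a replicate block or without any other single library.

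Other genes of the lysosomal system were counted in 7 lists, tested in the same fit. Of 18 subunits of the vacuolar proton pump, which acidifies lysosomes and, in intercalated cells, urine, 1 rose and 3 fell in fl/fl (median -0.12). Atp6v0a1 rose by 0.55 ± 0.13 (adjusted p = 0.00921). Atp6v1b1 (-1.22 ± 0.32), Atp6v1a (-0.72 ± 0.19) and Atp6v0a4 (-0.65 ± 0.21) fell, with adjusted p-values of 0.0194, 0.0186 and 0.0443. Intercalated cells use the B1 and a4 subunits, but the levels here do not tell which cells held them. Atp6v0a4 was at 439 to 536 CPM in fl/fl sham, against 84.6 to 111 CPM for Atp6v1b1. Of 5 collecting duct markers, Slc4a1, the anion exchanger of intercalated cells, was called lower (-1.73 ± 0.49, adjusted p = 0.0261), and 2 were above 0. Atp6v1g3, another gene of intercalated cells, was at 12.9 to 18.4 CPM in fl/fl sham and 13.3 to 17.8 CPM in fl/fl IRI, and Aqp2 at 43.9 to 101 and 55.5 to 185 CPM, neither of them called. The part of these cells in the subunit values was not tested. Of 23 further hydrolases, the asparaginyl endopeptidase Lgmn rose (0.72 ± 0.18, adjusted p = 0.0154) and arylsulfatase B (Arsb) fell (-0.72 ± 0.21, adjusted p = 0.029), with a median of -0.25. Among 14 further membrane proteins, the acetyltransferase Hgsnat rose (0.70 ± 0.16, adjusted p = 0.00881) and the proton and potassium channel Tmem175 fell (-0.66 ± 0.19, adjusted p = 0.0257), with a median of -0.02. None of 10 genes of lysosomal sorting were called (median 0.01), and 1 of 20 regulators and relatives of TFEB was, Lamtor5, an mTORC1 anchor, at -0.83 ± 0.26 (adjusted p = 0.0408, median of the list -0.10).

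Genes of autophagy and lysosomal damage gave 4 higher and 1 lower of 20 (median 0.15). Lgals3, the galectin that marks ruptured lysosomes and is also made by macrophages, rose from 19.7 to 33.4 CPM in fl/fl sham to 94.1 to 267 CPM in fl/fl IRI (2.73 ± 0.31, adjusted p = 0.000361). It was 27.4 to 50.2 CPM in iGKO sham and 72.2 to 121 CPM in iGKO IRI, which did not overlap (1.46 ± 0.30, adjusted p = 0.217). The autophagy receptor Sqstm1 (0.94 ± 0.24), the conjugation enzyme Atg7 (0.68 ± 0.13) and the galectin partner Trim16 (0.88 ± 0.25) rose in fl/fl with adjusted p-values of 0.0177, 0.00455 and 0.0302, and Gabarapl1 fell (-0.62 ± 0.16, adjusted p = 0.0172). Of 6 inhibitors of cathepsins and related proteases, 4 were tested and 3 rose (median 1.13). Cystatin B (Cstb), an inhibitor of papain-like cathepsins, was 21.2 to 26.2 CPM in fl/fl sham and 34.2 to 110 CPM in fl/fl IRI (1.64 ± 0.28, adjusted p = 0.0021). Serpinb6a and Serpinb1a rose by 1.31 ± 0.30 and 0.94 ± 0.29 (adjusted p = 0.0102 and 0.0401), and cystatin C (Cst3) was at -0.09 ± 0.14. In iGKO, and between genotypes, 0 genes of these 7 lists were called. The counts describe small lists beside the 8.46% and 7.01% of all genes called, and alternatives were run for the 38 genes and not for the lists.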

How the data were processed

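The values the authors deposited are whole-number read counts per gene for 16 libraries, with no normalization. Tools listed with no role in the submitters' processing notes were featureCounts 1.6.3, DESeq2 1.36.0, STAR 2.7.9a and cutadapt 1.16, and the genome was GRCm39 (mm39). The annotation release and strand setting are not given in the sources used here. Libraries were stranded and depleted of ribosomal RNA per the labels' protocols, and all 16 carry 1 batch date.

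Counts were fitted in R 4.3.3 with edgeR 4.0.16 (TMM, filterByExpr, quasi-likelihood), with 1 coefficient per group over all 16 libraries. Benjamini-Hochberg adjustment was over 17972 genes at 0.05. The same fit was run on simulated counts with a single spread for all genes and no far-off libraries. That run cannot tell how the fit handles the far-off libraries here. Levels are TMM-scaled CPM. The SE is the log2 fold change divided by the square root of F. It rests on a spread estimated over all 16 libraries, so a far-off library widens it in every comparison of that gene. Levels per kb used exon lengths of GENCODE M21 (GRCm38). The table pairs 52073 of 56980 IDs with symbols. The members and lists were chosen with earlier results of these data known. Values in every library are given for Tfeb, Tfe3, Mcoln1, Ctsk, Ctss and, in each role class, the 3 called genes of smallest p in fl/fl. Of other lists, up to 4 genes of smallest p are named. Alternatives were RLE scaling, DESeq2 1.42.0, no filter on low counts, the compared groups alone, a replicate block, each library left out, and 2 libraries left out together. Identity between cathepsin proteins was not analysed here.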

Additional observations from a re-analysis of the deposited data

Results flagged for a closer look

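Among 152 groups of 4 libraries (38 genes in 4 groups), 19 held a library set apart from the others beyond the critical value of Dixon's test. Chance gives about 1 in 20 groups, and 19 of 152 is a larger share. Genes of 1 library are not independent of each other, so a pattern in these values is weak on its own. Of the 19, 7 were in iGKO sham 4, the library with 0.443% of counts from mitochondrial genes. In it Ctsf was at 80.2 CPM (44.4 to 49.2 in the other 3), Gaa at 172 CPM (139 to 144), Man2b1 at 298 CPM (213 to 227), Psap at 2619 CPM (1561 to 1673) and Cd63 at 768 CPM (630.5 to 643), all high, while Ctsk at 2.96 CPM (5.01 to 5.20) and Ids at 38.001 CPM (64.0 to 68.4) were low.

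In fl/fl IRI 1, Ctss was at 189 CPM (23.3 to 47.7) and Cd63 at 1048 CPM (741 to 770). In fl/fl IRI 4, Ctsl was at 2786 CPM (506 to 817) and Manba at 69.4 CPM (116 to 117). The other fl/fl libraries were fl/fl IRI 2, with Ppt1 at 54.4 CPM (48.8 to 49.7) and Lamp1 at 775 CPM (617 to 642), fl/fl IRI 3, with Mcoln1 at 46.9 CPM (53.7 to 54.0), and fl/fl sham 2, with Laptm4a at 83.3 CPM (139 to 140.4). In iGKO IRI 2, Ctsk was at 48.9 CPM (4.59 to 7.65) and Gusb at 61.4 CPM (35.1 to 38.3), and in iGKO IRI 1, Ctsa was at 259.8 CPM (178 to 189.6) and Lipa at 267 CPM (202 to 213). With all libraries, 0 of the 38 genes had a called interaction, and 0 moved in opposite directions without overlap in the genotypes.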

How the results depend on the processing

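In fl/fl, the count of 8 genes higher after IRI was 5 to 9 over the fits that left out 1 library (5 without fl/fl sham 3). The count of 6 lower was 1 to 7. Over those fits, 4.43% to 11.9% of all genes rose and 3.07% to 11.6% fell. The lower count was 3 with no filter on low counts and 3 with the compared groups alone, beside 3.24% and 3.61% of all genes. In the comparison of iGKO IRI with fl/fl IRI, counts of 0 became 2 higher and 1 lower with DESeq2 (2.27% and 2.97% of all genes), 7 and 3 without both fl/fl IRI 1 and iGKO sham 4 (10.1% and 10.8%), and 0 to 6 and 0 to 3 over the single left-out libraries, where the counts above 0 all came without fl/fl IRI 1 (6.97% and 6.6%). For the interaction they became 1 lower with DESeq2 (0.451%) and 2 higher and 1 lower without both libraries (3.86% and 4.3%). Over single left-out libraries they were 0 to 1 in each direction, the counts of 1 without fl/fl IRI 1 (2.07% and 2.15%). DESeq2 called 1 gene higher in iGKO after IRI (0.211%). The causes were not tested. Counts in the sham comparison stayed at 0 under the alternatives that were run. Over the 38 genes, all comparisons and all alternatives run, 0 calls changed sign, 85 were lost and 36 were gained, 22 of these between iGKO IRI and fl/fl IRI.

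With the replicate number as a block, 6 genes rose and 6 fell in fl/fl, beside 7.28% and 6.6% of all genes. Npc1 (adjusted p = 0.0581) and Scarb2 (0.0802) lost their call, and the other comparisons had 0. The numbers were not taken to pair libraries. Deviations from the group means correlated at -0.335 to 0.399 over 24 same-numbered pairs, 6 of them over 0.1. Differently numbered pairs were not set beside them, so these values cannot tell whether the numbers pair libraries. With 4 libraries a group, SEs of 0.11 to 0.88 on the log2 scale limit what can be called.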
